A study of Mus musculus with 24 samples.

Results

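Among the TaqMan assays run on mouse soleus, 129 carried an asterisk in their name, the older mark for the passenger strand of a microRNA hairpin. The 126 described here are all of these except miR-378*, miR-33* and miR-24-2*, and they made up 126 of the 584 microRNA assays of the series. All of them sat on card B, the second of the 2 cards run for each animal, beside 83 other microRNA assays. Of the 126, 107 had mouse names and 19 had rat names, and 93 had an assay for the guide strand of the same name, 88 of them on card A and 5 on card B.

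Soleus RNA was taken from 12 male mice aged 12 weeks, in 4 groups of 3. MCK-PPARa mice overexpress PPARα and MCK-PPARb mice overexpress PPARβ, each from a transgene that is specific to muscle, and NTGa and NTGb are the wild-type, non-transgenic littermates of the respective line. PPARs are nuclear receptors that control genes of fatty acid use. RNA of whole soleus was measured, so fewer cells of a type and less RNA per cell cannot be told apart.

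A microRNA hairpin is cut by Drosha and then by Dicer into a short duplex. An Argonaute protein keeps a strand of that duplex, the guide, and discards the other, the passenger. The choice is known to depend on how loosely the 5′ end of each strand is paired and on its first base, with U favoured. The asterisk was given to the strand thought to be rarer when the name was assigned, which need not hold in every tissue. Bases 2 to 8 of the retained strand, the seed, pair with target messages, so the strands of a hairpin have different targets.

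Mature sequences were taken from RefSeq on mouse build GRCm38.p6, where 74 of the 126 were matched by name and arm and used. The first set is shown because these 2 strands gave the strongest signals of all passenger assays; they share a seed, and capitals mark it. In these 2 sequences a single base differs. The guide strands follow them.

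mmu-miR-30a*: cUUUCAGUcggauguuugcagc
mmu-miR-30e*: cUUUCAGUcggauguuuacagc
mmu-miR-30a: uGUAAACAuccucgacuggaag
mmu-miR-30e: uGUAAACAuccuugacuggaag

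The miR-30a* sequence lies at chr1:23272315-23272336 on the plus strand, outside the protein-coding and long non-coding genes of the annotation. The miR-30e* sequence lies at chr4:120772618-120772639 on the minus strand, within the bounds of Nfyc, which encodes a subunit of a CCAAT-binding factor.

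The second set is shown because the passenger strand gave a lower Ct than its guide strand in the control animals. The miR-503 hairpin is at chrX:53053987-53054008 on the minus strand for the passenger, within the bounds of the long non-coding gene C430049B03Rik. The passenger strand of miR-872 is at chr4:94665206-94665227 on the plus strand, within the bounds of Ift74, a gene for transport in cilia.

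mmu-miR-503*: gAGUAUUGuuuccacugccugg
mmu-miR-503: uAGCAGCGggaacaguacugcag
mmu-miR-872*: uGAACUAUugcaguagccuccu
mmu-miR-872: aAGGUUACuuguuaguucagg

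The third set gives hairpins whose guide was far above the passenger, miR-29a and miR-26b. The miR-29a* strand is at chr6:31062711-31062732 on the minus strand, and miR-26b* at chr1:74394360-74394381 on the plus strand, within the bounds of Ctdsp1.

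mmu-miR-29a*: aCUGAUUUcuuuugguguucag
mmu-miR-29a: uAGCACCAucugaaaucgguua
mmu-miR-26b*: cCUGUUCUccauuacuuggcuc
mmu-miR-26b: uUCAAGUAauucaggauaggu

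The last set holds passenger strands of the imprinted Dlk1-Dio3 region on chromosome 12 that share a seed and differ at 1 base, of which the first was detected in 12 animals and the second in 0.

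mmu-miR-376b*: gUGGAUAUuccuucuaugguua
mmu-miR-376c*: gUGGAUAUuccuucuauguuua

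Both sequences were known for 62 hairpins. The first base was U in 36 of the 62 guides (58.1%) and in 11 of the 62 passengers (17.7%), where C stood first in 22 and A in 21. The passenger lay on the 3p arm in 38 of these hairpins and on the 5p arm in 24. Within the 74 passenger sequences, U stood first in 3 of the 21 strands detected in all 12 animals, 4 of the 19 detected in 1 to 11 and 4 of the 34 detected in none. The median length was 22 bases in each class, and the median GC content was 50.0%, 45.5% and 47.7%. Of the 74, 12 shared a seed with another passenger, in 6 pairs. In the miR-30a*/miR-30e* pair both strands were detected in all 12 animals, in the miR-376b*/miR-376c* pair 1 was, and in the other 4 pairs neither was detected in any animal.

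Each well reports a threshold cycle (Ct), the PCR cycle in which its fluorescence first passes a set limit, and strong signals have low Ct values. Detection required a Ct under 35. Levels are given as log2 relative abundance, the Ct of the assay subtracted from a reference Ct, which averages the assays of its card that every animal expressed. Undetected values, and detected ones that fell lower once scaled, were set to a floor of -5.66 on card B and -6.56 on card A, so a value at the floor need not be undetected. Ct values of different assays also carry each assay's own efficiency, so an order between assays is an order of signals. The muscle microRNAs miR-133a and miR-206 gave a median Ct of 17.4 and 18.4 over the 12 animals. Liver miR-122 passed the detection limit in a single animal. The epithelial miR-200c was detected in 9 animals, miR-200b in 3, and miR-141, miR-200a and miR-205 in 1 each, with the detected miR-200a value at a Ct of 27.4. Of the neural ones, miR-128a was detected in 12 animals, miR-9 in 8 and miR-124 in 3. The part of other cells in the results was not tested. MicroRNAs of endothelium, leukocytes and fibroblasts were present, with median Ct values of 19.6 for miR-126-3p, 25.8 for miR-223 and 23.4 for miR-145.

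The card B values of 1 animal stood apart. In MCK-PPARa replicate 1, 15 of 52 tested passenger strands lay more than 1.5 log2 units from both group mates in the same direction, against 0 to 3 in each of the other 11 animals. That limit was set after the values were seen. The other tested assays of card B also stood apart there, at 11 of 36, but on card A 0 of 180 did. The strands higher in this animal were miR-470*, miR-34c*, miR-467b*, miR-467a* and miR-297a*, and the 10 lower ones included rno-miR-7a*, miR-214*, miR-29a*, miR-27b* and miR-28*. In each of the 15 the Ct lay outside the range of the other 11 animals. The mouse assay for miR-7a* read a Ct of 26.4 in this animal, within 1 cycle of the others, while the rat assay of the same name read 31.2 against 26.8 to 28.0 elsewhere. On card A, which holds most guides, NTGb replicate 2 stood apart most, at 15 of 180 tested assays. What sets these animals apart was not tested. Several results that rest on them are given with and without them, and others only with them.

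**Figure D1:**
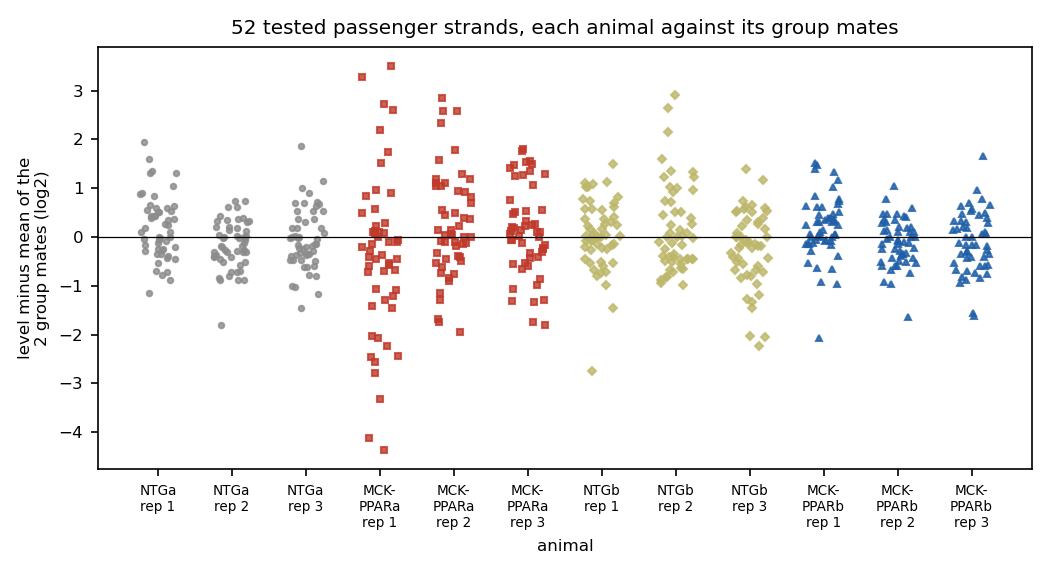
Level of each of the 52 tested passenger strands in each animal minus the mean of its 2 group mates (log2, vertical axis), by animal (horizontal axis, 4 groups of 3); each point is a strand. The points of MCK-PPARa replicate 1 spread furthest, with 15 strands more than 1.5 from both group mates, against 0 to 3 in the other animals.

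Detection of passenger strands was partial and similar in the 4 groups. Of the 126, 33 (26.2%) were detected in all 12 animals, 37 in 1 to 11, and 56 (44.4%) in none, and 34 of these 56 had no Ct in any animal. The other assays of card B gave 26 of 83 (31.3%) in all 12 animals and 48.2% in none, and the assays of card A gave 149 of 375 (39.7%) and 33.1%. Per animal, 55, 49 and 50 passenger strands were detected in NTGa, 46, 53 and 49 in MCK-PPARa, 52, 57 and 45 in NTGb, and 56, 54 and 55 in MCK-PPARb. The ranges of NTGa and MCK-PPARa overlapped, as did those of NTGb and MCK-PPARb. The lowest count, 45, was in NTGb replicate 3 and the highest, 57, in NTGb replicate 2, so a single control group spanned the whole range. Detected in 3 of 3 animals of a group and 0 of 3 of another was true of miR-31* alone, the passenger of a microRNA also known from muscle stem cells, which was detected in 3 of 3 MCK-PPARb animals, 1 of 3 in NTGb and MCK-PPARa, and 0 of 3 in NTGa. Its Ct in MCK-PPARb was 32.2, 33.9 and 33.0, and the detected NTGb animal gave 31.4, the lowest of all.

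Where duplicate wells could be compared, 69 passenger assays had 2 wells and 57 had 1. Well pairs with a mean Ct under 25 differed by a median of 0.0676 cycles. The median was 0.208 cycles for a mean Ct of 25 to 30, 0.315 for 30 to 32 and 0.729 for 32 to 35. In that last range 35.6% of 160 pairs were more than 1 cycle apart. Among strands detected in all 12 animals, 2 had a mean Ct under 25, 13 lay between 25 and 30, and 18 between 30 and 35.

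The miR-30a* and miR-30e* strands came from hairpins of the miR-30 family, whose guides are abundant in many tissues. The miR-30a* Ct was 22.2, 22.1 and 22.1 in NTGa, 21.9, 22.5 and 22.3 in MCK-PPARa, 22.6, 22.9 and 22.7 in NTGb, and 22.9, 22.7 and 22.6 in MCK-PPARb. The miR-30e* Ct was higher in 12 of 12 animals, by 0.362 ± 0.0845 cycles (SD, n = 12). They held ranks 3 and 4 by mean Ct among the microRNAs of card B detected in all animals. The next strand, mmu-miR-7a*, read a Ct 4.19 ± 0.234 cycles (SD, n = 12) above miR-30e*, a distance many times the spread between animals. The levels of miR-30a* and miR-30e* in the 6 controls were 6.40 ± 0.36 and 6.01 ± 0.37 (SD), on the log2 scale of card B.

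After this pair the signals were closely spaced. The level in the 6 controls was 1.75 for mmu-miR-7a*, 1.61 for rno-miR-7a*, 0.61 for miR-467a*, 0.48 for miR-93*, 0.21 for rno-miR-30d*, -0.07 for miR-877*, -0.36 for miR-22* and -0.50 for miR-872*. The SD between controls of miR-467a* was 0.56, so it was not separated from miR-93* below it. The miR-93* strand comes from the miR-106b cluster within Mcm7, a replication gene. The miR-877* strand comes from an intron of Abcf1, a mirtron that is released by splicing without Drosha, and miR-467a* from the large microRNA cluster in an intron of Sfmbt2.

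**Figure D2:**
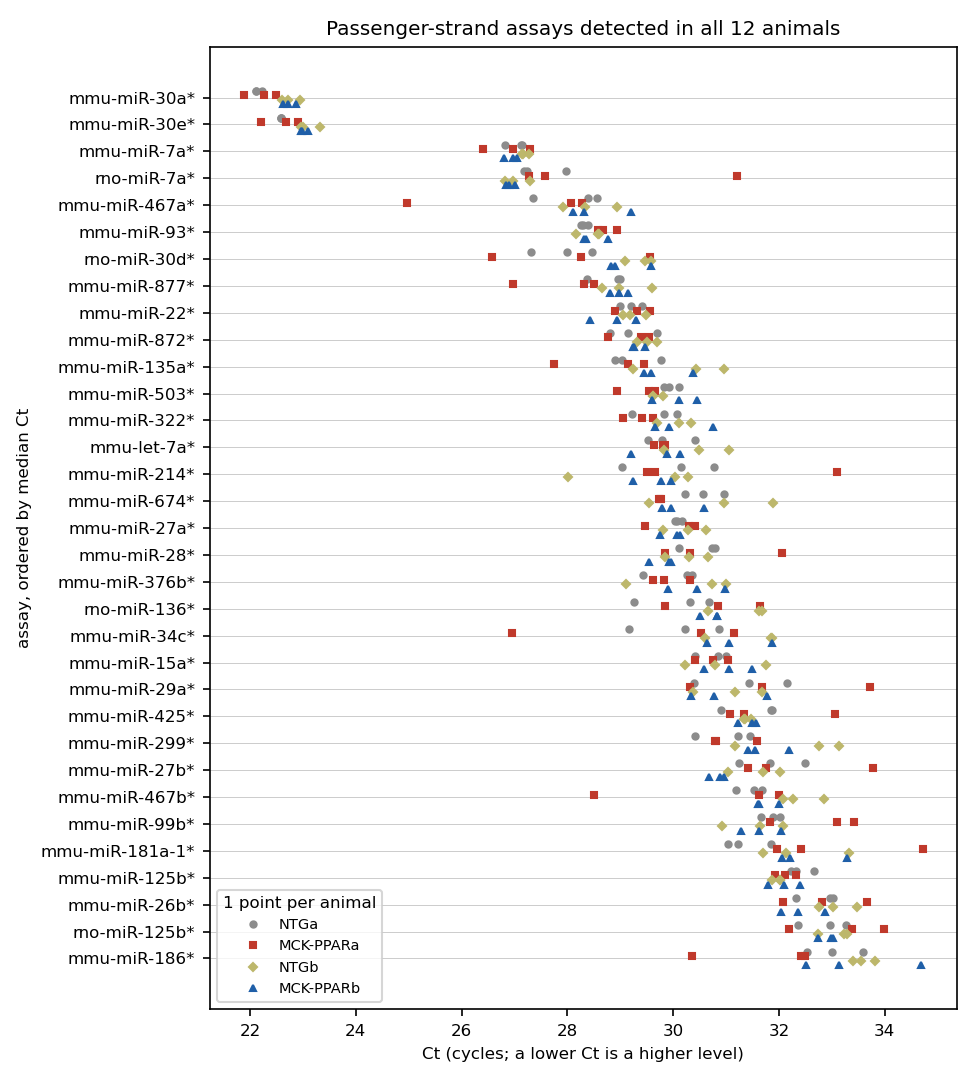
Ct (horizontal axis, cycles, lower is more template) of the 33 passenger-strand assays detected in all 12 animals, ordered by median Ct; each point is an animal, with colour and shape for the 4 groups. The miR-30a* and miR-30e* assays stand below Ct 24 in every animal, the others at Ct 24 or above, and 1 MCK-PPARa animal lies away from the rest for rno-miR-7a*, miR-467a*, miR-34c* and miR-214*.

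Grouped by hairpin family, detection was uneven. The miR-30 hairpins had 3 of 6 passengers detected in all animals and 3 in none. Of the 16 passengers from the Dlk1-Dio3 region, 3 (miR-376b*, rno-miR-136* and miR-299*) were detected in all animals and 11 in none. Of 11 passengers of the miR-17 cluster and its paralogs, which promote cell proliferation, miR-93* was detected in all animals and 8 in none. Both passengers of the X-linked miR-322 and miR-503 cluster, which is induced in muscle differentiation, were detected in all animals. Of the let-7 passengers, let-7a* was detected in all animals, 5 of 8 in some and 2 in none. The 5 epithelial passengers (of the miR-200 family, miR-141 and miR-183) and the 5 embryonic ones (of miR-302 and miR-290 hairpins) were detected in none.

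The muscle list held 2 passengers, miR-133a* and rno-miR-1*, and both gave weak signals. The miR-133a* assay was detected in 9 of 12 animals. The guide miR-133a, which restrains smooth muscle genes in striated muscle, had a Ct of 17.3, 17.0 and 17.2 in NTGa. The Ct of miR-133a* in the same animals was 32.9, 33.6 and 33.0. The guide therefore stood 15.11 ± 0.37 log2 units (SD, n = 3) above its passenger in NTGa, the only group other than MCK-PPARb in which miR-133a* was detected in 3 of 3 animals. The rat-named passenger assay of miR-1, rno-miR-1*, was detected in 5 of 12 animals, at a Ct of 33.1 and above, while miR-1 itself read 20.5 to 21.3.

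For the 93 hairpins with both strands on the cards, the guide was detected in more animals than the passenger in 50, in the same number in 31 and in fewer in 12. The guide was detected in all 12 animals for 56 hairpins, and among these the passenger was detected in all 12 animals in 19, in some in 18 and in none in 19. Abundant guides with no passenger detected in any animal included miR-30b at a mean Ct of 22.3 in the controls, miR-145 of smooth muscle at 23.5, and miR-150 of lymphocytes at 23.7. The miR-30b case stands beside miR-30a and miR-30e of the same family, whose passengers were the 2 strongest. Neither strand was detected in any animal in 12 hairpins.

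**Figure D3:**
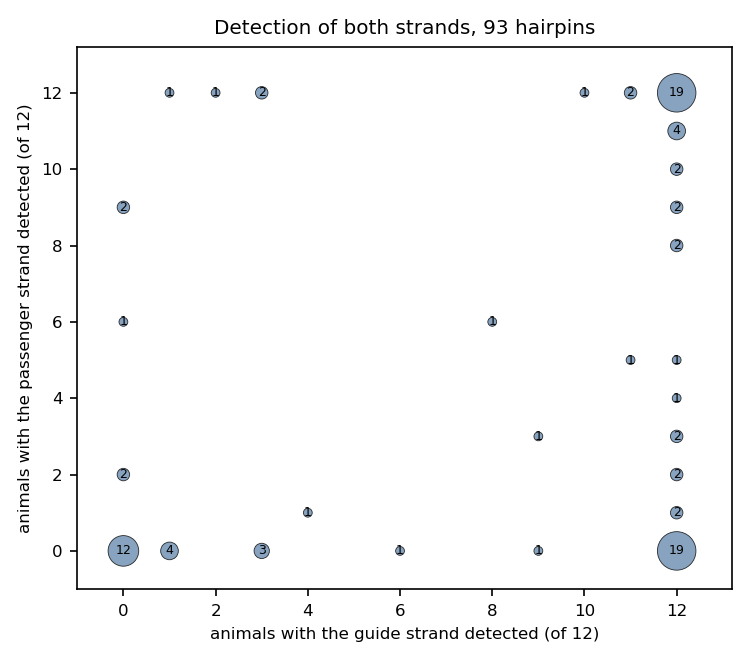
Number of animals (of 12) in which the guide strand (horizontal axis) and the passenger strand (vertical axis) were detected, for 93 hairpins; the area and number of each circle give the hairpins at that point. The largest groups are 19 hairpins with both strands in all animals, 19 with only the guide in all animals and 12 with neither strand in any.

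In 12 hairpins the passenger was detected in more animals than the strand without the asterisk. The miR-7a* assay gave a Ct of 26.4 to 27.3 in 12 animals, while the miR-7a assay was detected in 3. The miR-376b*, miR-674* and miR-34c* assays were likewise detected in 12 animals and their guides in 2, 3 and 1. The assays for miR-455*, miR-485* and miR-470* were detected in 9, 9 and 6 animals and their guides in none. The remaining ones were miR-135a*, miR-425* and miR-467b* with guides detected in 10 or 11 animals, and miR-325* and miR-881*, each detected in 2.

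Both strands were detected in all 6 controls for 21 hairpins, and the gap, the guide's log2 relative abundance minus the passenger's, had a median of 0.43. It ran from -5.42 for miR-467a* to 9.05 for miR-29a*. Hairpins with either strand undetected in a control were left out. Wider gaps, such as that of miR-133a in NTGa, are therefore outside this median and range. The guide was higher in 13 hairpins and the passenger in 8. Because 88 guides were on card A and each card has its own reference set, a gap between cards depends on the reference: without any scaling, the passenger's Ct was above the guide's by a median of 1.33 cycles, and with the endogenous small RNA controls as reference the median gap was 1.34. Without NTGa replicate 2 the median gap was 0.97, and without NTGb replicate 3 it was 0.93. The sign was the same under all 5 references in 19 of the 21 hairpins, the guide higher in 13 and the passenger higher in 6. Where both strands are on card B, as for miR-22 and miR-877, the reference cancels, so the sign could not change. The hairpins of miR-28* and miR-30e* changed sign with the reference.

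The 6 hairpins with the passenger higher under all references were miR-467a, miR-503, miR-30a, miR-872, miR-15a and miR-877. The miR-30a guide read a Ct of 23.9, 23.7 and 24.1 in NTGa and 24.7, 24.5 and 24.9 in NTGb, each above the Ct of miR-30a* in the same animal. The gap of miR-30a was -2.72 ± 0.19 (SD, n = 6) and -1.83 ± 0.26 as unscaled cycles. For miR-30e the strands were nearly level, with a gap of -0.04 ± 0.30 and 0.86 ± 0.32 as unscaled cycles, so the closely related passengers sat beside guides that differed in signal. The gap of miR-467a was -5.42 ± 1.11, of miR-503 -3.26 ± 1.25 and of miR-872 -1.87 ± 0.47 (SD, n = 6). The gap of miR-15a, -1.14 ± 0.60, was -0.03 with U6 as reference, and that of miR-877, both of whose strands are on card B, was -0.35 ± 0.89, within its spread.

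Among the 21 hairpins with both strands detected in all 6 controls, the widest gaps belonged to guides with strong signals. The miR-29a gap was 9.05 ± 0.83, the miR-26b gap 8.49 ± 0.54 and the miR-29c gap 7.28 ± 0.81 (SD, n = 6). The guide miR-29a, which represses collagen genes, read a mean Ct of 21.3 in the controls and its passenger 31.2. In the miR-29b hairpin, whose guide shares its seed with the guides of miR-29a and miR-29c, the gap was 1.80 ± 0.75. The miR-27a and miR-27b gaps were 3.93 ± 0.41 and 4.58 ± 0.64. The miR-22 hairpin, with both strands on card B, gave 3.05 ± 0.46, a value that no reference can move.

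**Figure D4:**
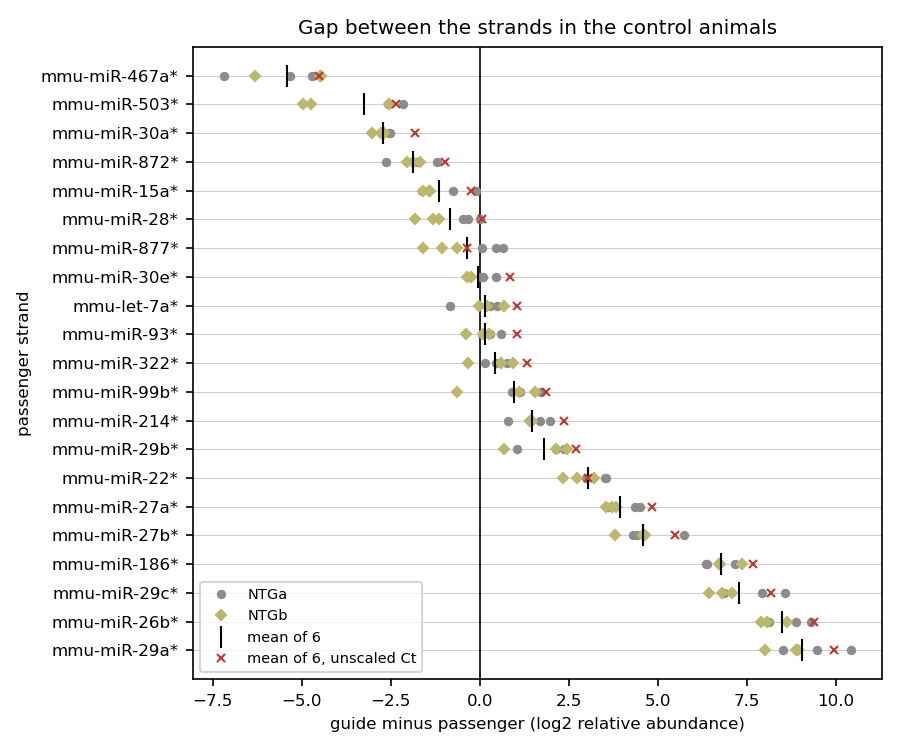
Guide minus passenger (horizontal axis, log2 relative abundance) for the 21 hairpins with both strands detected in all 6 controls; points are the NTGa and NTGb animals, bars the mean of 6, and crosses the mean in unscaled Ct. Gaps run from -5.42 for miR-467a* to 9.05 for miR-29a*, and most crosses lie to the right of the bars, by the difference of the reference sets.

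Some names were on card B as a mouse and as a rat assay, 8 in all, and not all of them read alike. The rat assay of miR-7a* differed from the mouse assay by a median of 0.0274 cycles, with the 1 MCK-PPARa animal named above at 4.79. For miR-125b* the rat assay was higher by 0.862 ± 0.514 cycles (SD, n = 12). The mouse assay of miR-135a* was detected in 12 animals at a mean Ct of 29.5, and the rat assay in 0. For miR-28*, the mouse assay was detected in 12 animals and the rat assay in 4. For miR-136* the mouse assay was detected in 0 and the rat assay in 12. No sequence was tied to the rat-named assays, so whether both assays of a name read the same strand was not tested.

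To ask whether either transgene moved the passenger strands, group means were compared with limma across all 268 assays detected in 3 of 3 animals of at least 1 group, with Benjamini-Hochberg adjustment over the 268. Of the 126 passengers, 52 passed this filter, and 18 more were detected in some animal but were not tested. In MCK-PPARa against NTGa, 0 of 52 passenger strands changed at an adjusted p under 0.05, against 2.24% of all tested assays. At an unadjusted p under 0.05 there were 5 of 52 (9.62%) against 16.4% of all tested. The median log2 difference was -0.05 for the passengers, 25 higher and 27 lower, and 0.12 for all tested assays. Without MCK-PPARa replicate 1, 0 were called and the median was 0.11. Of the 59 reference assays of card B, 33 were passengers of this set. A shift common to the passengers is therefore partly subtracted, and the medians here and below cannot show it in full.

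The miR-93* level was 0.38, 0.60 and 0.15 in NTGa and -0.42, -0.08 and -0.02 in MCK-PPARa. All MCK-PPARa animals lay below all NTGa animals. The difference was -0.55 (95% interval -1.02 to -0.08; limma, adjusted p = 0.247), and -0.43 without MCK-PPARa replicate 1. The miR-181a-1* level, from a hairpin whose guide acts in lymphocyte development, was -2.41, -2.96 and -2.70 in NTGa and -5.66, -3.54 and -3.31 in MCK-PPARa. These groups did not overlap either, yet the lowest value, detected but set to the floor, was from replicate 1. The difference of -1.48 (interval -2.78 to -0.18; limma, adjusted p = 0.252) was -0.73 without that animal. For miR-29c* the difference was -1.35 (adjusted p = 0.289, limma), and -0.67 without it.

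On the higher side, miR-877* stood at -0.33, -0.10 and 0.16 in NTGa and 1.19, 0.37 and 0.34 in MCK-PPARa. The groups did not overlap, and the difference was 0.72 (interval 0.02 to 1.42; limma, adjusted p = 0.295). Replicate 1 held the highest value, and without it the difference was 0.44. The miR-186* strand showed the same shape, with a difference of 1.16 (limma, adjusted p = 0.295) that became 0.65 without replicate 1. The miR-196a* difference was 0.59 (limma, adjusted p = 0.357), with NTGa levels of -5.07, -5.66 and -5.66, where -5.66 is the floor. Groups did not overlap for 7 of 52 passengers (13.5%), namely miR-30a*, miR-93* and miR-181a-1* on the lower side and miR-877*, miR-503*, miR-674* and miR-186* on the higher side, against 25.7% of all tested assays.

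In MCK-PPARb against NTGb, 0 of 52 passengers changed, and of all 268 tested assays 0.0% did. At an unadjusted p under 0.05 there were 3 of 52 (5.77%) against 8.58% of all tested, and the median difference was -0.03 for passengers and 0.02 for all tested. Groups did not overlap for 4 passengers (7.69%), let-7a* and miR-133a* higher and miR-125b* and miR-485* lower, against 15.3% of all tested assays. For miR-125b* the difference was -0.36 by the mouse assay and -0.06 by the rat assay, whose groups overlapped. The miR-133a* level was -4.85, -5.66 and -5.66 in NTGb and -3.23, -4.55 and -4.70 in MCK-PPARb. Its difference of 1.23 (interval 0.17 to 2.30; limma, adjusted p = 0.516) rests on a control group in which 2 of 3 animals were at the floor, and it was 0.77 without MCK-PPARb replicate 1. The guide miR-133a had a mean level of 10.78 in NTGb and 10.57 in MCK-PPARb, nearly the same.

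The miR-485* level, from the Dlk1-Dio3 region, was -3.51, -1.34 and -4.48 in NTGb and -4.53, -5.45 and -5.66 in MCK-PPARb, so the NTGb animals lay above, spread over more than 3 log2 units. The difference was -2.10 (limma, adjusted p = 0.516), and -1.22 without NTGb replicate 2, which held the highest value. The rno-miR-204* level was lower by 1.19 in MCK-PPARb (difference -1.19, limma, adjusted p = 0.49), with 2 of 3 MCK-PPARb animals at the floor, both detected at a Ct under 35. The remaining named differences were 0.63 for miR-196a*, 0.98 for miR-676* and -0.60 for miR-503*, none past the threshold. They were 0.95 for miR-196a* without MCK-PPARb replicate 2, and 1.51 for miR-676* and -0.92 for miR-503* without MCK-PPARb replicate 3. The NTGb levels were -5.65, -5.66 and -5.66 for miR-196a* and -4.57, -5.66 and -5.66 for miR-676*, where -5.66 is the floor. For the strongest strand, miR-30a*, the interval of the difference was -0.77 to 0.40 in MCK-PPARa and -0.79 to 0.38 in MCK-PPARb.

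By hairpin family, 0 passengers were called in either line in each of the 14 lists. In MCK-PPARa, the 3 tested passengers of miR-29 hairpins had a median difference of -0.70, beside 0.12 for all tested assays, and -0.14 without MCK-PPARa replicate 1. The 3 from the Sfmbt2 cluster had a median of 0.88, and 0.01 without that animal. The 2 of the fibroblast and smooth muscle list moved from -0.54 to 0.15 without it, and the 6 of the neural list, which includes miR-7a* and miR-125b*, from -0.29 to 0.02. The miR-322 and miR-503 passengers had medians of 0.34 in MCK-PPARa and -0.45 in MCK-PPARb, and the miR-30 passengers -0.19 and -0.14. The medians for let-7, the miR-17 cluster and its paralogs, and Dlk1-Dio3 were 0.06, -0.15 and -0.09 in MCK-PPARa, 0.25, 0.10 and -0.03 there without replicate 1, and 0.05, 0.13 and -0.02 in MCK-PPARb. The muscle list had only miR-133a* tested and the leukocyte list only miR-181a-1*, and the 2 passengers of the blood vessel and red cell list, detected in some animals, were not tested.

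**Figure D5:**
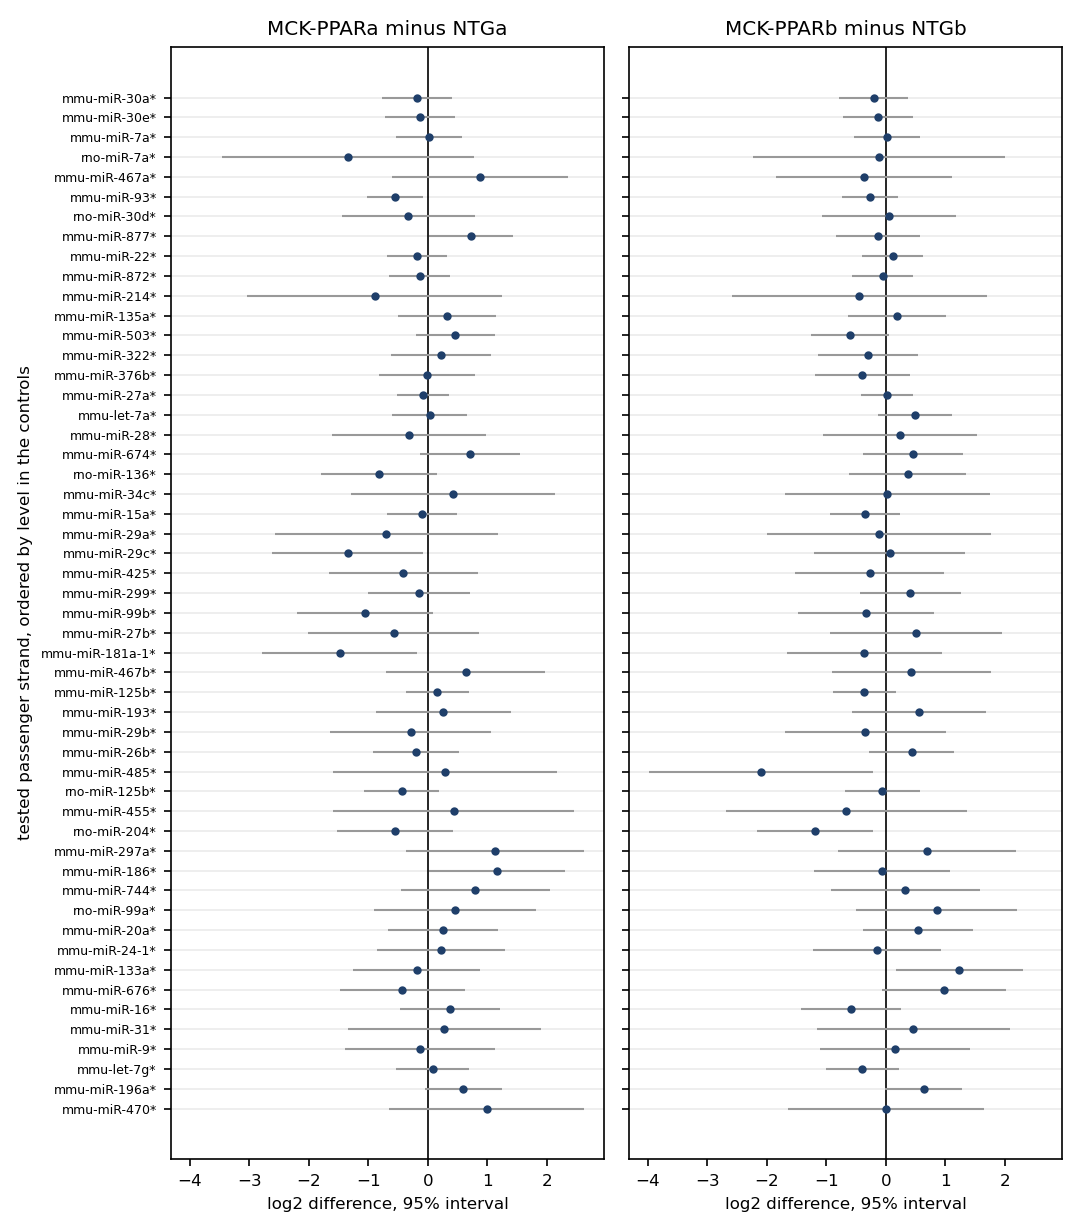
Log2 difference with its 95% limma interval (horizontal axes) for the 52 tested passenger strands, ordered by level in the controls, for MCK-PPARa minus NTGa (left) and MCK-PPARb minus NTGb (right). No strand passed an adjusted p under 0.05 in either panel; estimates run from -1.48 to 1.16 on the left and -2.10 to 1.23 on the right.

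The effects of the 2 transgenes were compared directly by the difference of the differences. Of the 52 passengers 0 passed, against 1.12% of all tested assays, and 1 of 52 (1.92%) had an unadjusted p under 0.05, against 10.4%. The lowest p was for miR-503*, at -1.20, -1.04 and -1.59 in NTGa, -0.77, -0.79 and -0.89 in MCK-PPARa, -0.71, -0.95 and -0.29 in NTGb, and -1.61, -1.54 and -0.62 in MCK-PPARb. MCK-PPARa animals lay above NTGa, and MCK-PPARb animals overlapped NTGb. The difference of effects was 1.06 (SE 0.42; limma, adjusted p = 0.331). The values for miR-485*, miR-877*, miR-676*, miR-133a* and rno-miR-136* were 2.40, 0.86, -1.40, -1.42 and -1.18, none past the threshold. That of miR-485* was 1.51 without NTGb replicate 2 and 1.54 without MCK-PPARa replicate 2. Without MCK-PPARa replicate 1, that of miR-133a* was -0.94 and that of miR-877* was 0.58.

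Between the control groups, NTGa against NTGb, 0 of 52 passengers passed, against 1.87% of all tested assays, and 4 of 52 (7.69%) had an unadjusted p under 0.05 against 15.7%. The miR-125b* level was -3.59, -3.44 and -4.13 in NTGa and -2.93, -3.19 and -2.68 in NTGb, with no overlap. This was the lowest p among passengers in any comparison, with a difference of -0.79 (interval -1.31 to -0.26; limma, adjusted p = 0.122). For the rat assay of the same name, detected in 12 animals, the groups overlapped, with a difference of -0.13 (interval -0.76 to 0.50). Whether both assays read the same strand was not tested. The other differences were -1.20 for miR-24-1*, -1.99 for miR-485*, 0.98 for miR-299*, 1.12 for rno-miR-30d* and 0.88 for rno-miR-136*. The NTGa levels of miR-24-1* were -5.28, -5.66 and -5.66, where -5.66 is the floor. The miR-485* difference was -1.10 without NTGb replicate 2, and the rno-miR-136* difference 0.55 without NTGa replicate 3. Groups did not overlap for 8 passengers (15.4%) against 19.4% of all tested assays. The median absolute log2 difference over the 52 passengers was 0.55 between the controls, 0.39 in MCK-PPARa and 0.36 in MCK-PPARb. Over all tested assays it was 0.41, 0.36 and 0.33, in the same order.

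Of the guides of these hairpins, 63 of 93 were tested. By limma, 0 guides were called for either transgene or for the difference of effects. An unadjusted p under 0.05 was reached by 9 of 63 in the PPARα line, 5 in the PPARβ line and 4 for the difference. The shares of all tested assays were 16.4%, 8.58% and 10.4%. Between NTGa and NTGb, miR-135a was higher and miR-425 lower in NTGa (limma, adjusted p = 0.0339 and 0.0426), where 1.87% of all tested assays were called. The miR-425 levels in NTGa lay near or at the floor of card A.

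The gap between arms was tested in 41 hairpins, 32 with a passenger of this set and 9 with arm names, with adjustment over the 41. For each transgene and for the difference of effects, 0 of the 32 gaps changed by limma, against 0.0% of all gaps. Between NTGa and NTGb, 1 gap changed, against 2.44% of all gaps. This was miR-135a. Its gap was -1.62, -0.78 and -1.51 in NTGa, -1.92, -1.25 and -0.71 in MCK-PPARa, -4.90, -3.37 and -4.93 in NTGb, and -2.59, -2.05 and 0.22 in MCK-PPARb. All NTGb animals lay below the other 9 animals, and the guide was low there, with a Ct of 34.6 and 31.5 and none in the third, against 29.3 to 29.9 in NTGa. The gap was 3.10 higher in NTGa (SE 0.70; limma, adjusted p = 0.0369), and 2.92 higher in MCK-PPARb than in NTGb (adjusted p = 0.0564, limma). The call between the controls was lost when any of 8 animals was left out, among them each NTGa animal, with adjusted p from 0.00512 to 0.231 over the 12 omissions (limma), and at a detection limit of Ct 32 the difference was 1.07. Without NTGb replicate 2 it was 3.61 (adjusted p = 0.0199, limma). The call is not shown to hold with another reference, on which a gap between cards depends.

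The miR-425 gap was -2.91, -3.29 and -4.19 in NTGa and 2.49, -0.80 and -1.28 in MCK-PPARa. The passenger miR-425* was lower in replicate 1 of MCK-PPARa, the animal that stands apart, and the guide was higher in all 3 MCK-PPARa animals. In NTGa the guide level lay near the card A floor of -6.56, and at it in replicate 3. The gap was 3.60 higher in MCK-PPARa (limma, adjusted p = 0.0953), and 2.42 higher without that animal (adjusted p = 0.215). For the 6 hairpins with the passenger above the guide, no gap difference passed the threshold. The differences ran from -0.72 for miR-467a to 0.81 for miR-15a in MCK-PPARa and from -0.20 for miR-877 to 1.12 for miR-503 in MCK-PPARb. The miR-467a value includes MCK-PPARa replicate 1, in which miR-467a* stood apart.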

How the data were processed

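MicroRNA was measured with TaqMan cards in 12 animals, each run on 2 cards, which gave 24 deposited samples. Per the labels' protocols, extraction used RNAzol B and PCR ran for 40 cycles on an Applied Biosystems 7900HT. The authors deposited 1 Ct per well, not normalized, with empty cells where none was called; software and threshold: not given in the sources used here. The columns left unmatched to a sample were 0. The labels call the replicates biological, and p-values measure the spread between these samples.

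Replicate wells were averaged, an empty cell counting as Ct 40 where its partner had a value. References were the 149 assays of card A and 59 of card B detected in all animals. Groups were fitted with limma 3.58.1 in R 4.3.3 over all 12 animals (8 residual degrees of freedom), and tested on simulated data. The alternatives were other references and detection limits, missing in place of floor values, a replicate block, and leaving out each animal. Named strands were those called in any comparison, the 3 of lowest p on each side per comparison, the 10 of highest level in the controls, those above their guide, the widest gaps, those detected in 3 of 3 animals of a group and 0 of 3 of another, and examples of the 14 hairpin lists; others were named after their values were seen. Members, lists and rules were chosen with earlier results of these data known. Arms were assigned by hand from the older names, and names that could not be tied to 1 mature sequence were left without one.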

Additional observations from a re-analysis of the deposited data

How the results depend on the processing

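Passenger strands detected in all animals numbered 33, against 20 at a detection limit of Ct 32 and 51 when any called Ct counted. The median gap to the guide in the controls, 0.43, was 1.34 with endogenous controls as reference, 1.54 with U6 and 1.33 without scaling, and 0.33 to 0.97 with a control animal left out. The median difference of the tested passengers moved by more than the spread between animals with U6 (0.32) and without scaling (0.19) for MCK-PPARb, with endogenous controls (0.18), U6 (0.39) and no scaling (0.21) between the controls, and without a detection limit for the difference of effects (-0.27). Passengers called stayed at 0 except for 1 between the controls with U6 as reference (miR-30a*, limma, 0.84, adjusted p = 0.0495) and 1 in MCK-PPARa. The latter was rno-miR-1* without NTGa replicate 3 (limma, -1.11, adjusted p = 0.0136). It passed the filter only because that animal, the 1 NTGa animal without detection, was left out. All MCK-PPARa values of rno-miR-1* were at the floor, so the call sets 2 NTGa values against a constant. With an animal left out, the range was 0 to 1 in MCK-PPARa and 0 elsewhere. Leaving out an animal gave 0 to 1 called gaps in each transgenic line and in the difference of effects and 0 to 2 between the controls: miR-744 in MCK-PPARa without its replicate 1, miR-676 without MCK-PPARb replicate 3, miR-135a in MCK-PPARb without MCK-PPARa replicate 1, NTGb replicate 2 or MCK-PPARb replicate 1, and miR-425 between the controls without MCK-PPARa replicate 1 (-3.15, adjusted p = 0.0305, limma). In a fit of only the 2 groups compared, an alternative chosen after seeing the data, 2 gaps were called between the controls, miR-135a and miR-425 (limma, adjusted p = 0.00513 for both), and 0 for either transgene. Called gaps between the controls fell from 1 to 0 at Ct 32, without a limit and with hairpins detected in all animals only. With another reference no gap call was recorded. A gap between cards depends on the reference, so the call is not shown to hold there.

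Same-numbered animals were not treated as pairs. Correlations of their deviations ran from -0.29 to 0.22, which cannot settle whether these animals were matched. With the replicate block, called passengers stayed at 0, and 1 gap was called in each line, miR-425 in MCK-PPARa (limma, adjusted p = 0.0423) and miR-135a in MCK-PPARb (adjusted p = 0.0471). The causes were not tested. Of the 24 named differences, 24 kept their sign under the alternatives that gave a value. Of the 33 strands detected in all animals, 18 had a mean Ct above 30.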
